A study of Mus musculus with 15 samples.

Results

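The comparison asked whether the transcripts that went with reporter activity in sorted cells that the labels call HEI were the same as those that went with it in FLK1+ cells. For each gene the quantity was a difference of differences, the effect of reporter activity in HEI cells (ENG+/FDG+ minus ENG+/FDG-) minus its effect in FLK1+ cells (LacZ+ minus LacZ-), with libraries paired by replicate number. It used 12 of the 15 libraries of the series, 3 in each of 4 groups. All came from differentiated mouse embryonic stem cells that carry LacZ, the gene of bacterial beta-galactosidase, behind regulatory elements of Endoglin (Eng). The ENG+/FDG+ and ENG+/FDG- HEI groups came from a line with the Eng promoter (P) and the -8 kb enhancer, and both were positive for the ENG protein. FDG is a substrate that becomes fluorescent when beta-galactosidase cuts it. The FLK1+/LacZ+ and FLK1+/LacZ- groups came from a line in which the promoter was joined to the -8, +7 and +9 kb enhancers, and both were sorted for FLK1 (VEGF receptor 2, the product of Kdr). Stage, reporter construct, cell line and sort thus change together between the HEI and the FLK1+ term and cannot be told apart. Whether replicates were separate cultures is not named in the labels, so a p-value here covers only the spread among these libraries, which may be technical. The sources used here do not give the sort gates, the culture days or whether a line is 1 clone.

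Endoglin is a co-receptor for TGF-beta family ligands on endothelial cells and on early blood-forming cells. FLK1+ mesoderm holds precursors of endothelium and blood, and part of the endothelium, called haemogenic, later gives rise to blood cells. Along this path genes of the primitive streak are shut off, endothelial genes such as Cdh5 and Pecam1 are switched on, and the transcription factor RUNX1 is needed for blood cells to leave the endothelium.

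Each of the 12 libraries held between 9673396 and 16337785 reads assigned to genes, with reads on 15469 to 17064 genes. Replicate 1 stood apart at both stages, with at least 13841382 counts each against at most 11467820 in replicates 2 and 3, and with 1.40% to 3.56% of counts in the ribosomal precursor Rn45s against 0.524% to 0.784%. Levels below are CPM, counts scaled to a common library size with TMM factors, listed for replicates 1, 2 and 3 in this order. The sorted cells carried the genes of their labels. Cdh5 lay between 1520 and 2900 CPM in the 6 HEI libraries, where the primitive streak list summed to 9.79 to 18.5 CPM. Kdr lay between 310 and 722 CPM in the 6 FLK1+ libraries, where the same list summed to 780 to 2900 CPM. Kdr was higher still in the HEI libraries, at 768 to 1040 CPM, so it does not set the FLK1+ cells apart.

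No gene's reporter effect differed between HEI and FLK1+ cells past the threshold when all 3 pairs of each stage were used. Of 13505 genes tested with edgeR's quasi-likelihood test, 0 had a Benjamini-Hochberg adjusted p under 0.05, and the called share was 0%. At an unadjusted p under 0.05 there were 1313 genes (9.72%), of which 401 (2.97%) had a higher and 912 (6.75%) a lower effect in HEI cells. DESeq2 in the same paired design called 44 genes of 10327 to which it gave an adjusted p, 5 higher (0.0484%) and 39 lower (0.378%). The HEI effect alone called 0 genes (575 genes, or 4.26%, at an unadjusted p under 0.05, and 1 with DESeq2), while the FLK1+ effect called 19 (0.141%), with 11 genes (0.0815%) that rose and 8 (0.0592%) that fell in LacZ+ cells. These 19 calls became 0 with a replicate block shared by both stages, with no block, with all 15 libraries in the fit and without replicate 3, which holds for each FLK1+ call with all pairs named below. The 3 HEI pair differences of a gene all lay above the 3 FLK1+ ones for 5.44% of genes and all below them for 12.1%.

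The result turned on replicate 1. With replicates 2 and 3 alone, 257 of 13233 genes (1.94%) passed for the difference, 84 (0.635%) with a higher and 173 (1.31%) with a lower effect in HEI cells, and 30 of these were among the 44 of DESeq2 (11.7% of the 257 and 68.2% of the 44). Of 256 that could be tested with all pairs, 253 had the same sign there, but that fit contains the libraries that made the calls. The 253 are therefore no separate check. In the replicate 1 pairs taken alone 150 of the 256 had the same sign, with no share over all genes to set beside it. The fits of replicates 2 and 3 rest on 2 libraries a group whose independence is not given. Over 9076 genes above 3 log2 CPM, the pair differences had an SD of 0.231, 0.219 and 0.224 log2 in HEI cells and of 0.502, 0.208 and 0.244 log2 in FLK1+ cells. In the FLK1+ replicate 1 pair 462 genes differed by over 1 log2 unit, against 21 and 34 in the other FLK1+ pairs. The HEI differences of replicates 2 and 3 correlated across these genes at 0.405 and the FLK1+ ones at 0.254, and those of the replicate 1 pairs of both stages at -0.345, as a description across genes, which are not independent and which within a stage share 1 line and sort.

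**Figure D1:**
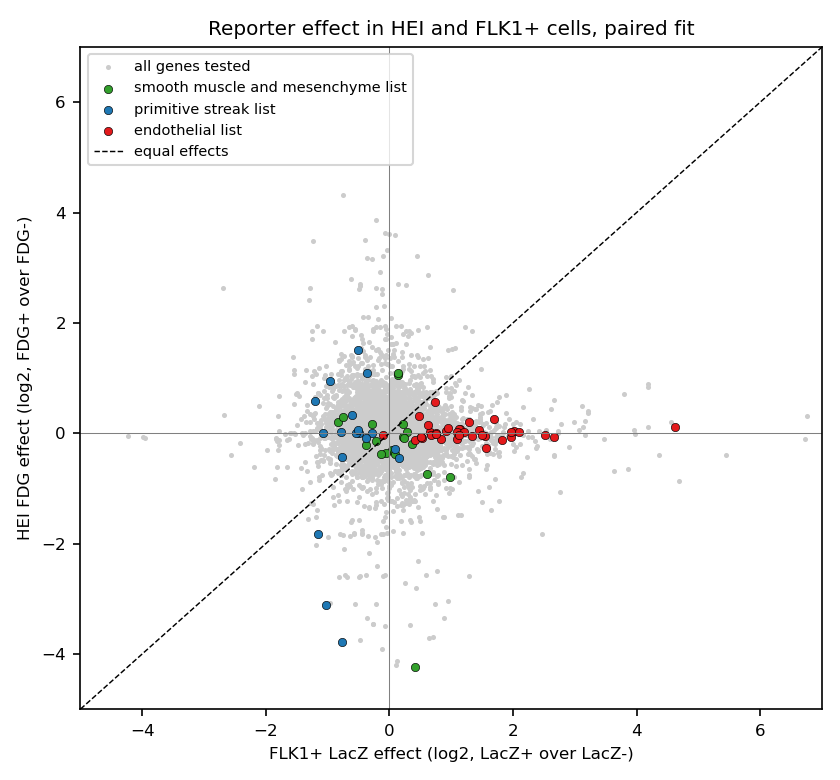
Reporter effect of each gene in HEI cells (vertical, log2 of FDG+ over FDG-) against that in FLK1+ cells (horizontal, log2 of LacZ+ over LacZ-) from the paired edgeR fit, with 13505 genes in grey and 3 gene lists in colour; the dashed line marks equal effects. The endothelial genes lie along the horizontal axis, with a median of 0.00 log2 in HEI cells and 1.13 log2 in FLK1+ cells.

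Endothelial genes as a list had a lower reporter effect in HEI than in FLK1+ cells, although none passed the threshold singly with all pairs. All 36 genes of the list passed the filter on low counts. The difference was negative for 35 of them, against 7681 of all 13505 genes. An unadjusted p under 0.05 went with it for 24 (6.75% of all genes). In 20 the 3 HEI pairs all lay below the 3 FLK1+ pairs (12.1% of all genes). The list's median difference was -1.08 log2, against -0.05 over all genes tested. Some members had few FLK1+ reads, such as Emcn, the mucin endomucin, at or under 0.856 CPM in each FLK1+ library, and these passed the filter through their HEI level. By pair, the list's median was -0.26, 0.16 and 0.08 log2 in HEI cells and 1.79, 0.33 and 0.56 log2 in FLK1+ cells. The HEI medians thus lay on both sides of 0 and the FLK1+ medians were all above it, with replicate 1 the highest. With replicates 2 and 3 alone 7 passed as lower (1.31% of all genes). In that fit the HEI effect itself was called as higher in FDG+ cells for some members (2.34% of all genes). These were Cd93 (0.39 ± 0.07 log2), Gpr116 (0.41 ± 0.08), Nos3 (0.62 ± 0.16), Eltd1 (0.24 ± 0.07) and Flt4 (0.27 ± 0.08), with an edgeR adjusted p from 0.000155 to 0.0312. Each was negative in the HEI replicate 1 pair, from -0.59 to -0.02 log2. With DESeq2 on all pairs 3 passed as lower (0.378% of all genes), Icam2, Ptprb and Sox18, an adhesion molecule, a phosphatase and a transcription factor of endothelium.

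Pecam1 (chr11:106654217-106750628 in GENCODE M21, assembly GRCm38), an adhesion protein of endothelial junctions, stood at 643, 489 and 510 CPM in FDG+ HEI cells, against 802, 514 and 506 CPM in FDG- HEI cells. In LacZ+ FLK1+ cells it stood at 44.4, 13.1 and 23.5 CPM, against 6.3, 5.77 and 10.1 CPM in LacZ- cells. The HEI fractions overlap and every LacZ+ library lies above every LacZ- library. The difference of effects was -1.95 ± 0.41 log2 (SE; edgeR adjusted p = 0.339), and -1.18 ± 0.15 with replicates 2 and 3 alone (edgeR adjusted p = 8.64e-08).

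Cdh5 (chr8:104101625-104144511), which encodes VE-cadherin, had 2410, 1520 and 1640 CPM in FDG+ HEI cells and 2900, 1520 and 1600 CPM in FDG- HEI cells. LacZ+ FLK1+ cells had 118, 28.2 and 38.2 CPM and LacZ- cells 10.3, 15 and 15.1 CPM. Replicate 1 was thus highest among the LacZ+ and lowest among the LacZ- libraries, and the groups did not overlap. The difference of effects was -2.05 ± 0.67 log2 (edgeR adjusted p = 0.465), and -1.06 ± 0.12 with replicates 2 and 3 alone (edgeR adjusted p = 1.08e-08), about the size that the FLK1+ effect took there, 1.12 ± 0.10 log2.

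Tek (chr4:94739289-94874976) encodes the angiopoietin receptor TIE2, by which the study describes the cells that the -8 kb enhancer marks. Its level was 516, 894 and 804 CPM in FDG+ HEI cells, against 600, 855 and 793 CPM in FDG- HEI cells. FLK1+ cells had 44.8, 30.1 and 34.3 CPM when LacZ+, against 8.87, 20.9 and 23.1 CPM when LacZ-. The difference was -1.17 ± 0.47 log2 (edgeR adjusted p = 0.511), and -0.46 ± 0.11 with replicates 2 and 3 alone (edgeR adjusted p = 0.0159). The other list members that passed in replicates 2 and 3, named after their values were seen, were Eltd1 (-1.38 log2), an adhesion G-protein-coupled receptor of endothelium, Cd93 (-1.04), a lectin-like surface receptor, Ptprb (-0.54), the vascular tyrosine phosphatase VE-PTP, and Fli1 (-0.38), an ETS transcription factor.

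Eng itself, the gene whose elements drive both reporters (chr2:32646595-32682669), showed no difference that passed the threshold, with all pairs or with replicates 2 and 3 alone. It stood at 902, 182 and 189 CPM in FDG+ HEI cells, against 982, 186 and 222 CPM in FDG- HEI cells, with the FDG+ library the lower one in each pair. FLK1+ cells had 81.5, 24.2 and 20.8 CPM when LacZ+, against 37.9, 20.9 and 25.3 CPM when LacZ-, so the fractions overlapped. The difference was -0.54 ± 0.31 log2 (edgeR adjusted p = 0.58), and -0.05 ± 0.14 with replicates 2 and 3 alone (edgeR adjusted p = 0.934). Replicate 1 also set the level of Eng in HEI cells, where both of its libraries lay over 4 times above the others.

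The promoter windows of Eng and Tek, 250 bases before to 50 bases after the RefSeq start on assembly GRCm38.p6, are printed because the first is the promoter region of the gene that drives LacZ in both lines and the second belongs to an endothelial gene whose effect differed in replicates 2 and 3. They run 5' to 3' on the plus strand at chr2:32646345-32646644 and chr4:94739039-94739338, and capitals mark the core letters that ETS factors such as FLI1 bind, GGAA on either strand (read as TTCC on the other).
Eng: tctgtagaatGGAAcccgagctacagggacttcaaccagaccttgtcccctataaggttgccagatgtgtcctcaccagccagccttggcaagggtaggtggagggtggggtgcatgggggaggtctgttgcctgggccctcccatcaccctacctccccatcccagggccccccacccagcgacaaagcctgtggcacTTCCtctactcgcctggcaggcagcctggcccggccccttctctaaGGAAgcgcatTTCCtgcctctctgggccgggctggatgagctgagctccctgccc
Tek: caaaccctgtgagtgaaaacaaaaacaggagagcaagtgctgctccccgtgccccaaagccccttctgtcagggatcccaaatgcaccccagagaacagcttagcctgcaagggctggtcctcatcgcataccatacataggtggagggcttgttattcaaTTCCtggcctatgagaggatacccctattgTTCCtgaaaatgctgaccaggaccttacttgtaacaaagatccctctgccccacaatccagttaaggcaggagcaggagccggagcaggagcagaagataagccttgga
The Eng window held 4 such cores and the Tek window 2. Of 32851 RefSeq promoter windows of the same length, 96.0% held at least 1 (the median was 3), 46.3% held as many as Eng or more and 84.6% as many as Tek or more, so a match is common and describes the letters only.

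**Figure D2:**
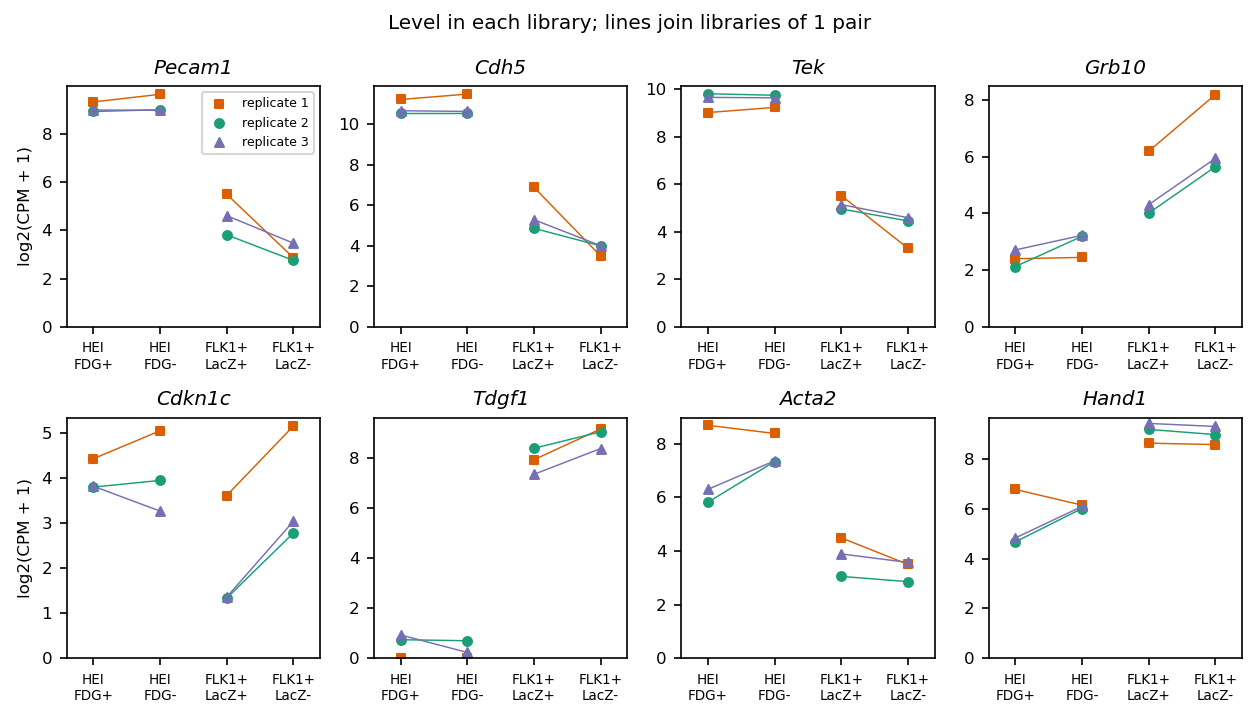
Level of 8 genes in each of the 12 libraries, as log2(CPM + 1), with lines that join the 2 libraries of a pair and symbols for the replicate number. For Pecam1, Cdh5 and Tek the HEI lines are nearly flat and the FLK1+ lines stand higher at LacZ+ than at LacZ-, whereas for Acta2 and Hand1 the HEI lines of replicates 2 and 3 stand lower at FDG+ than at FDG- and that of replicate 1 stands higher.

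Where no gene passes, the naming rule takes the 6 genes a direction with the smallest p among those whose HEI and FLK1+ pairs do not overlap, and the 6 lower ones were also carried mainly by the FLK1+ term. Tlr4 (chr4:66827584-66930284), the receptor for bacterial lipopolysaccharide, had 39.5, 90.3 and 85.3 CPM in FDG+ HEI cells, against 52.3, 83.5 and 87.6 CPM in FDG- HEI cells. It had 1.28, 0.507 and 1.35 CPM in LacZ+ FLK1+ cells and no read in the 3 LacZ- libraries. Its FLK1+ level was therefore at least 4.13-fold higher in LacZ+ cells, taken against 3 counts per LacZ- library, which covers counting error only. The fitted difference of -6.83 ± 0.85 log2 (edgeR adjusted p = 0.168) depends on how an empty group is treated and is no bound. It passed with replicates 2 and 3 (edgeR adjusted p = 0.00112) and with DESeq2 (adjusted p = 0.00117). Both fits use the same few FLK1+ reads, 21, 5 and 13 in the LacZ+ libraries, and are no separate check. Tlr4 passed the filter on low counts through its HEI level.

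The other 5 by this rule were Trim47, a RING-finger protein (-3.19 ± 0.48 log2), Myct1, a membrane protein of endothelium (-2.19 ± 0.37), Ptrf, the caveolar coat protein cavin-1 (-1.22 ± 0.21), Mical2, an actin-oxidising enzyme (-0.97 ± 0.16), and Tspan9, a tetraspanin (-0.80 ± 0.13). Trim47 and Myct1 had few FLK1+ reads and passed the filter on low counts through their HEI level, with Trim47 at 48, 2 and 4 reads in LacZ+ cells, against 3, 1 and 1 in LacZ- cells, and Myct1 at 91, 5 and 13 reads, against 17, 5 and 2. Without replicate 1 the value was -1.52 ± 1.07 log2 for Trim47 and -1.65 ± 0.63 for Myct1. Each of the 5 had an edgeR adjusted p of 0.168 with all pairs, and each passed with DESeq2. Tspan9 stood at 419, 171 and 202 CPM in FDG+ HEI cells, against 474, 209 and 252 CPM in FDG- HEI cells, and at 87.1, 42.3 and 47.6 CPM in LacZ+ FLK1+ cells, against 52.4, 29.4 and 38.1 CPM in LacZ- cells. It was lower with reporter activity in each HEI pair and higher in each FLK1+ pair. With replicates 2 and 3 alone Tspan9, Mical2 and Ptrf passed (edgeR adjusted p = 0.000123, 0.0295 and 0.00678), while Trim47 and Myct1 did not (edgeR adjusted p = 0.588 and 0.2). Of the 11 genes that rose in LacZ+ FLK1+ cells, Tlr4, Trim47 and Ptrf are among those above, and all 11 had a fitted HEI effect between -0.12 and 0.44 log2.

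Genes of the early haematopoietic, megakaryocyte and myeloid lists mostly had the same sign as the endothelial ones, and those of the erythroid list mostly had not (6 of 9 tested positive). Of all genes tested, 7681 of 13505 were negative. Of the 24 early haematopoietic genes 23 were tested (Ptprc was filtered out), 21 had a lower effect in HEI cells, and 8 of these had an unadjusted p under 0.05 (6.75% of all genes). The list's median difference was -0.68 log2, and its FLK1+ pair medians were 1.33, 0.16 and 0.31 log2 against HEI pair medians of 0.03, -0.12 and -0.08. All 8 megakaryocyte genes tested of 13 were negative (median -0.85 log2), as were 7 of the 8 myeloid genes tested of 14 (median -0.97), with an unadjusted p under 0.05 for 3 genes in each. Without replicate 1 these medians were -0.47 and -0.40 log2, and no myeloid gene passed. None of these passed with all pairs, by edgeR or DESeq2. Of the myeloid genes the rule named, Lcp1, an actin-bundling protein of leukocytes, was at -0.50 ± 0.29 log2 and Mrc1, the mannose receptor, at -0.26 ± 0.47. With replicates 2 and 3 alone Runx1, Myb, Mecom and the integrin gene Itgb3 passed as lower. The endothelial list moved with them, in bulk RNA fewer cells of a type and less RNA per cell cannot be told apart, and the part of one list in the other was not tested.

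Runx1 (chr16:92601466-92826149) and Mecom reached a lower difference by different terms. Runx1 had 30.2, 33.3 and 30.8 CPM in FDG+ HEI cells, against 19.2, 52.3 and 56.9 CPM in FDG- HEI cells, and 132, 154 and 161 CPM in LacZ+ FLK1+ cells, against 129, 137 and 130 CPM in LacZ- cells. FDG+ cells held less of it in replicates 2 and 3 and more in replicate 1. The difference was -0.48 ± 0.37 log2 (edgeR adjusted p = 0.667), and -0.96 ± 0.12 with replicates 2 and 3 alone (edgeR adjusted p = 1.5e-07), of which the HEI effect made up -0.74 ± 0.09. Mecom, which encodes the zinc-finger factor EVI1 and was named after its values were seen, had 95, 134 and 133 CPM in FDG+ HEI cells, against 103, 133 and 139 CPM in FDG- HEI cells, while FLK1+ cells had 9.04, 6.48 and 8.84 CPM when LacZ+, against 0.831, 2.89 and 4.12 CPM when LacZ-. Its difference of -1.11 ± 0.21 log2 in replicates 2 and 3 (edgeR adjusted p = 0.000991) was a FLK1+ effect of 1.11 and a HEI effect of 0.00.

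Other regulators and surface markers that had been set for description did not pass for the difference in either fit. The difference was -0.61 ± 0.41 log2 for Tal1, -0.32 ± 0.21 for Gata2 and -0.70 ± 0.67 for Gfi1, all transcription factors of early blood, and -0.64 ± 0.26 for Kit, the stem cell factor receptor, and -0.68 ± 0.23 for Itga2b, the CD41 integrin chain (edgeR adjusted p between 0.42 and 0.728). Etv6, an ETS repressor that the naming rule took from the list with Tal1, was at -0.29 ± 0.13 log2. Gfi1 turned to a positive difference when some libraries were left out, and ranged there from -1.20 to 0.21 log2. In replicates 2 and 3 the HEI effect itself was called as lower in FDG+ cells for 2 of these genes. It was -0.29 ± 0.07 log2 for Tal1 and -0.30 ± 0.09 for Gata2 (edgeR adjusted p = 0.0135 and 0.042). Their HEI replicate 1 pairs went the other way, at 0.26 and 0.23 log2. Gfi1, Kit and Itga2b had no called effect at either stage in that fit.

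**Figure D3:**
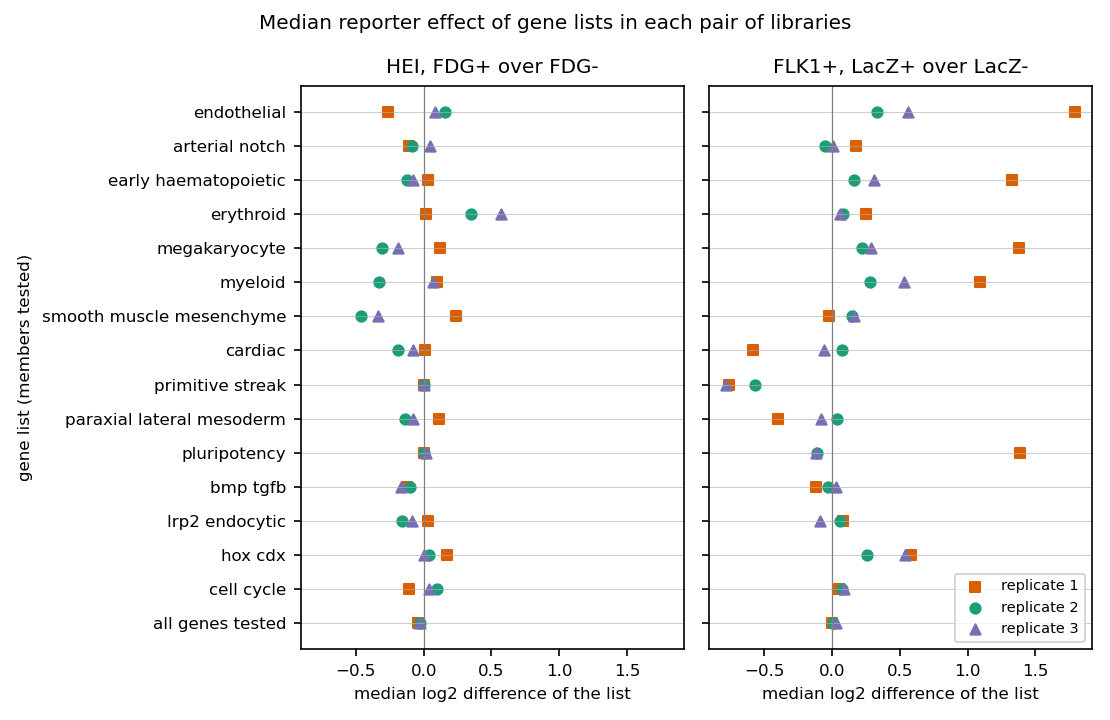
Median log2 difference between reporter-positive and reporter-negative libraries for the tested members of 15 gene lists and for all genes tested, for each HEI pair (left) and each FLK1+ pair (right), with a symbol per replicate number. The endothelial, early haematopoietic, megakaryocyte and myeloid medians lie above 0 in each FLK1+ pair and within 0.33 log2 of 0 in each HEI pair, and replicate 1 is the highest FLK1+ pair in all 4.

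The replicate 1 pair of FLK1+ cells also differed in genes of other cell types. The median of the 18 tested pluripotency genes of 20 was 1.39 log2 in that pair, against -0.11 and -0.12 in the other FLK1+ pairs, and the summed list ran from 1520 to 1860 CPM in LacZ+ and from 1440 to 1530 CPM in LacZ- cells. Pou5f1, the OCT4 gene, had 36.1, 2.43 and 2.18 CPM in LacZ+ cells, against 11.6, 7.08 and 3.28 CPM in LacZ- cells, and no read in any HEI library, as had Sox2. The smooth muscle and mesenchyme list summed to 719, 1330 and 1340 CPM in LacZ+ cells, against 983, 1360 and 1250 CPM in LacZ- cells. The part of these genes in the endothelial and blood differences of that pair was not tested. Without the replicate 1 pairs the endothelial median difference was -0.38 log2 and the early haematopoietic one -0.32.

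Primitive streak genes went the opposite way in the FLK1+ term and were almost without reads in HEI cells. Over the 18 tested of 19 genes, the FLK1+ pair medians were -0.76, -0.57 and -0.78 log2, and the summed list stood at 1700, 1200 and 780 CPM in LacZ+ cells, against 2900, 1720 and 1270 CPM in LacZ- cells. In HEI cells it summed to 11.6, 12.3 and 14.1 CPM in FDG+ libraries, against 9.79, 18.5 and 11 CPM in FDG- libraries. Tdgf1 (chr9:110939603-110946158), the Nodal co-receptor CRIPTO, fell by 0.97 ± 0.13 log2 in LacZ+ FLK1+ cells (edgeR adjusted p = 0.0368), with 240, 329 and 160 CPM against 562, 520 and 327 CPM. In HEI cells Tdgf1 stood at or under 0.908 CPM in every library, with 0, 7 and 9 reads in FDG+ libraries, against 0, 7 and 2 in FDG- libraries, so its difference of 1.92 ± 0.65 log2 (edgeR adjusted p = 0.448) rests on few reads in HEI cells. Lhx1, a LIM homeobox factor, fell as well in LacZ+ FLK1+ cells (-1.03 ± 0.15 log2, edgeR adjusted p = 0.0461), and Mixl1, a homeobox factor of the streak, was at -0.61 ± 0.11 log2 there (edgeR adjusted p = 0.0734). For the difference 0 streak genes passed with all pairs, by edgeR or DESeq2. At an unadjusted p under 0.05 there were 5, of which 4 were higher (2.97% of all genes) and 1 lower (6.75% of all genes). In 6 the 3 HEI pairs all lay above the 3 FLK1+ pairs (5.44% of all genes), and in 0 all below them (12.1%). With replicates 2 and 3 alone 0 of 17 tested passed by edgeR. With so few HEI reads, as for Sp5 with none in FDG+ libraries, these counts say little of the HEI term.

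Among the 6 genes that the rule named with a higher effect in HEI cells, Cdkn1c, Grb10 and Dlc1 fell in LacZ+ FLK1+ cells. Cdkn1c (chr7:143458339-143461050), the cyclin-dependent kinase inhibitor p57, had 20.5, 12.9 and 13.1 CPM in FDG+ HEI cells, against 32, 14.4 and 8.62 CPM in FDG- HEI cells. FLK1+ cells had 11.2, 1.52 and 1.56 CPM when LacZ+, against 34.5, 5.86 and 7.21 CPM when LacZ-. The HEI pairs thus had no common direction, and the FLK1+ level was lower in LacZ+ cells in each pair, a change of -1.83 ± 0.26 log2 (edgeR adjusted p = 0.0314). Its difference of 1.71 ± 0.34 log2 did not pass with all pairs (edgeR adjusted p = 0.193) and passed with replicates 2 and 3 (2.32 ± 0.37, edgeR adjusted p = 4.19e-05) and with DESeq2 (adjusted p = 0.00828).

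Grb10 (chr11:11930508-12038683), an adaptor that restrains insulin and IGF receptor signalling, had the smallest adjusted p of the FLK1+ effect. LacZ+ FLK1+ cells held 72.1, 15.1 and 18.8 CPM, against 291, 49 and 60.4 CPM in LacZ- cells, a change of -1.82 ± 0.15 log2 (edgeR adjusted p = 0.00191). HEI cells held 4.28, 3.36 and 5.55 CPM when FDG+, against 4.46, 8.13 and 8.36 CPM when FDG-, so Grb10 was lower with reporter activity in all 6 pairs and by less in HEI cells. The difference was 1.20 ± 0.26 log2 (edgeR adjusted p = 0.229, and 0.0683 with replicates 2 and 3 alone; DESeq2 adjusted p = 0.0112).

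Dlc1, a GTPase-activating protein, differed by 0.52 ± 0.10 log2, Cachd1, a calcium-channel-like subunit, by 0.60 ± 0.12, and Sfi1, a centrosomal protein, by 0.76 ± 0.16 (edgeR adjusted p = 0.207, 0.207 and 0.229). Sfi1 had a fitted HEI effect of 0.42 ± 0.11 and a FLK1+ effect of -0.34 ± 0.12 log2. All 3 passed with replicates 2 and 3 (edgeR adjusted p = 6.75e-06, 0.000119 and 0.0182). Rpph1, the RNA of ribonuclease P, had the largest positive value, 5.34 ± 0.88 log2, and rests on replicate 1 alone. It had 29.1, 0.959 and 0.807 CPM in FDG+ HEI cells, against 2.42, 0.715 and 0.352 CPM in FDG- HEI cells, and 3.54, 0.203 and 0.312 CPM in LacZ+ FLK1+ cells, against 29.6, 0.745 and 0.468 CPM in LacZ- cells. Without replicate 1 it was too low to be tested.

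**Figure D4:**
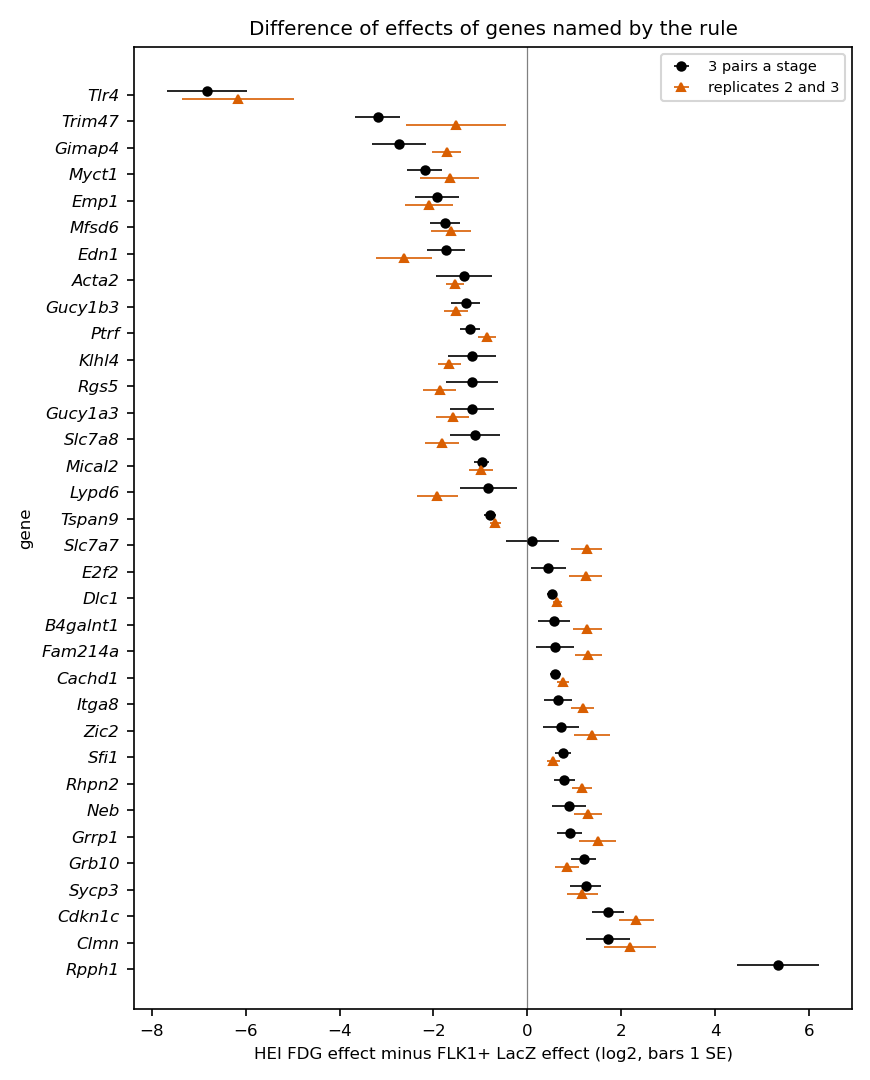
Difference of reporter effects (HEI minus FLK1+, log2, bars 1 SE) of the genes named by rule, from all 3 pairs a stage (circles) and from replicates 2 and 3 alone (triangles). The 34 genes are those chosen by size or p, not the set genes or list members. The signs are the same in both fits, which share replicates 2 and 3, for each gene plotted with both values. Rpph1 has no value without replicate 1.

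In replicates 2 and 3 a second set of genes was led by the HEI term. The HEI effect called 503 genes there, 310 higher (2.34%) and 193 lower (1.46%) in FDG+ cells, and the FLK1+ effect 240, 149 higher (1.13%) and 91 lower (0.688%) in LacZ+ cells. Of the 173 genes that passed there as lower, 56 had a called rise in LacZ+ FLK1+ cells and no called HEI effect, 49 a called fall in FDG+ HEI cells and no called FLK1+ effect, 19 both, 3 a called rise in both and 46 neither. Of the 84 that passed as higher, 40 had a called rise in FDG+ HEI cells alone, 24 a called fall in LacZ+ FLK1+ cells alone, 3 both, 1 a rise in both and 16 neither. The RNA quality list, of which 4 of 13 genes were tested (Rn45s, Malat1, Neat1 and Xist), had a higher sum in FDG+ HEI cells. It summed to 20800, 17600 and 15700 CPM in FDG+ HEI cells, against 16500, 12100 and 10200 CPM in FDG- HEI cells, and to 25800, 13600 and 14200 CPM in LacZ+ FLK1+ cells, against 36900, 12900 and 13900 CPM in LacZ- cells. The sum was higher in the FDG+ library of each HEI pair, but the list's HEI pair medians were 0.23, -0.09 and 0.42 log2. Rn45s took 1.86%, 0.529% and 0.524% of counts in FDG+ HEI libraries, against 1.4%, 0.64% and 0.54% in FDG- HEI libraries. Its share was thus higher in replicate 1 and lower in the other pairs. Malat1 passed as higher for the difference in replicates 2 and 3, where it was higher in FDG+ HEI cells. The part of RNA quality in the HEI-led differences was not tested. The genes given next were chosen after their values were seen.

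Acta2 (chr19:34241090-34255590), smooth muscle actin, had 409, 55.3 and 77.5 CPM in FDG+ HEI cells, against 331, 160 and 163 CPM in FDG- HEI cells. FLK1+ cells had 21.4, 7.29 and 13.8 CPM when LacZ+, against 10.3, 6.24 and 10.9 CPM when LacZ-. FDG+ cells were thus lower in replicates 2 and 3 and higher in replicate 1. The difference was -1.54 ± 0.19 log2 with replicates 2 and 3 (edgeR adjusted p = 3.74e-07) and -1.35 ± 0.59 with all pairs (edgeR adjusted p = 0.529). Hand1 (chr11:57828705-57832818), a transcription factor of heart and extraembryonic mesoderm, had 108, 24.4 and 27.3 CPM in FDG+ HEI cells, against 69.5, 63.1 and 66.9 CPM in FDG- HEI cells, and 393, 577 and 681 CPM in LacZ+ FLK1+ cells, against 378, 499 and 626 CPM in LacZ- cells. Its difference was -1.45 ± 0.11 log2 in replicates 2 and 3 (edgeR adjusted p = 1.04e-14) and -0.75 ± 0.57 with all pairs (edgeR adjusted p = 0.666).

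Other mesenchymal and mesodermal genes lower in the same fit were Col1a1 (-1.33 ± 0.23 log2), a fibrillar collagen chain, Tagln (-0.79 ± 0.20), the actin-binding protein SM22, the ligand gene Bmp4 (-0.64 ± 0.11) and Rspo3 (-0.50 ± 0.09), which amplifies Wnt signals. Of the smooth muscle and mesenchyme list 20 of 22 were tested, 13 were negative with all pairs, against 7681 of all 13505 genes, and 3 passed as lower in replicates 2 and 3 (1.31% of all genes). The rule named Zeb2 (-0.31 ± 0.10 log2), a zinc-finger repressor, and Cdh2 (0.18 ± 0.13), N-cadherin. Its HEI pair medians were 0.24, -0.46 and -0.34 log2, so replicate 1 was opposite to the others. Rgs5, a regulator of G-protein signalling known from pericytes, had 0.584, 0.767 and 1.11 CPM in FDG+ HEI cells, against 0.248, 3.66 and 2.64 CPM in FDG- HEI cells, and 13.9, 124 and 101 CPM in LacZ+ FLK1+ cells, against 20, 102 and 97 CPM in LacZ- cells. Its difference was -1.87 ± 0.35 log2 in replicates 2 and 3 (edgeR adjusted p = 0.000762) and -1.18 ± 0.55 with all pairs (edgeR adjusted p = 0.528). The HEI values of Rgs5 rest on 9, 8 and 11 reads in FDG+ cells, against 4, 41 and 30 in FDG- cells. It reached a group mean of 10 CPM only in FLK1+ cells, and its HEI replicate 1 pair was opposite to the others. The amino acid transporter Slc7a8 (-1.81 ± 0.36), the nicotinic receptor modulator Lypd6 (-1.92 ± 0.44), and Gucy1a3 and Gucy1b3, the subunits of the nitric oxide receptor guanylate cyclase (-1.59 ± 0.35 and -1.52 ± 0.26), passed as well. Slc7a8 had 34, 12 and 14 reads in FDG+ HEI cells, against 19, 28 and 57 in FDG- HEI cells. Lypd6 had 23, 13 and 9 reads, against 12, 27 and 30. Both reached a group mean of 10 CPM only in FLK1+ cells, and in both HEI replicate 1 was opposite to the others. Lypd6 had no called HEI effect in replicates 2 and 3 (-1.19 ± 0.39 log2, edgeR adjusted p = 0.0761).

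In other genes named from that fit the FLK1+ groups held few reads. Edn1, the vasoconstrictor endothelin, had 257, 97.9 and 132 CPM in FDG+ HEI cells, against 326, 121 and 137 CPM in FDG- HEI cells, and 2.63, 0.507 and 2.29 CPM in LacZ+ FLK1+ cells, against 1.32, 0.279 and 0.187 CPM in LacZ- cells. The FLK1+ values rest on 43, 5 and 22 reads in LacZ+ cells, against 19, 3 and 2 reads in LacZ- cells. The gene passed the filter on low counts through its HEI level, so the difference of -2.63 ± 0.59 log2 (edgeR adjusted p = 0.00704) is no firm measure of its FLK1+ term. Klhl4, a BTB and kelch domain protein, had 66.2, 421 and 379 CPM in FDG+ HEI cells, against 88.9, 365 and 356 CPM in FDG- HEI cells, and 1.47, 4.76 and 6.45 CPM in LacZ+ FLK1+ cells, against 1.94, 1.49 and 1.59 CPM in LacZ- cells, with a difference of -1.66 ± 0.25 log2 (edgeR adjusted p = 1.48e-05). Gimap4, a GTPase of lymphoid and vascular cells, Emp1, a tetraspan membrane protein, and Mfsd6, a membrane transporter-like protein, differed by -1.72 ± 0.31, -2.09 ± 0.51 and -1.63 ± 0.42 log2. Of these, Emp1 had a called HEI effect in replicates 2 and 3 (-0.68 ± 0.20 log2, edgeR adjusted p = 0.0376) and no called FLK1+ effect (1.40 ± 0.47, edgeR adjusted p = 0.132).

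Genes higher in replicates 2 and 3 by the same rule were low or moderate in level. Clmn, a calponin-like transmembrane protein, stood at 1.3, 2.01 and 1.41 CPM in FDG+ HEI cells, against 1.12, 0.893 and 0.264 CPM in FDG- HEI cells, and at 9.17, 8.51 and 5.2 CPM in LacZ+ FLK1+ cells, against 17.9, 11.6 and 8.52 CPM in LacZ- cells. It was higher with reporter activity in each HEI pair and lower in each FLK1+ pair, and differed by 2.18 ± 0.55 log2 (edgeR adjusted p = 0.0182). Its HEI values rest on 20, 21 and 14 reads in FDG+ cells, against 18, 10 and 3 in FDG- cells. Clmn reached a group mean of 10 CPM only in LacZ- FLK1+ cells. Neither its HEI nor its FLK1+ effect was called in replicates 2 and 3 (edgeR adjusted p = 0.0538 and 0.273). Itga8, an integrin chain of mesenchyme, differed by 1.18 ± 0.24 log2, and had 5.51, 15.1 and 9.38 CPM in FDG+ HEI cells, against 7.44, 10.4 and 8.45 CPM in FDG- HEI cells, and 8.8, 16.2 and 11.9 CPM in LacZ+ FLK1+ cells, against 9.63, 30.9 and 17.6 CPM in LacZ- cells. B4galnt1, a ganglioside synthase, had 16.9, 16.5 and 15.6 CPM in FDG+ HEI cells, against 15.1, 9.74 and 8.01 CPM in FDG- HEI cells, and differed by 1.28 ± 0.31 log2. The other 8 besides Cdkn1c, with values of at least 1.16 log2, were Grrp1 (1.5 ± 0.39), Zic2, a zinc-finger factor of neural tissue, Fam214a, Neb, the muscle protein nebulin, Slc7a7, an amino acid transporter, E2f2, a cell cycle transcription factor, Sycp3, of the meiotic synaptonemal complex, and Rhpn2. With all pairs their edgeR adjusted p lay between 0.35 and 0.961, and Slc7a7 was at 0.11 ± 0.56 log2.

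Lrp2 (chr2:69424340-69586065), the endocytic receptor megalin that the study's title names, was low in all groups. FDG+ HEI cells had 5, 2.88 and 5.45 CPM, against 3.53, 4.11 and 7.57 CPM in FDG- HEI cells, and LacZ+ FLK1+ cells had 18.3, 3.85 and 6.24 CPM, against 3.95, 3.91 and 5.43 CPM in LacZ- cells. The LacZ+ library of replicate 1 stands above the rest and the other libraries overlap. The difference was -1.03 ± 0.60 log2 (edgeR adjusted p = 0.578), and -0.54 ± 0.38 with replicates 2 and 3 alone (edgeR adjusted p = 0.588). Of the 12 tested of 14 genes of the list of Lrp2, related receptors and partners, 8 were negative, the median was -0.16 log2, and 0 passed in either edgeR fit or with DESeq2 (1 at an unadjusted p under 0.05, Vldlr, with all pairs). Lrp6, a Wnt co-receptor, was at 0.06 ± 0.12 log2. Kdr was at 0.08 ± 0.12 log2 with all pairs (edgeR adjusted p = 0.835) and at 0.28 ± 0.08 with replicates 2 and 3 alone (edgeR adjusted p = 0.0742).

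For the remaining lists the median differences ran from -0.69 to 0.27 log2, with the Hox and Cdx list as far from all genes (-0.05) as the early haematopoietic one. The median difference was -0.10 log2 over 27 BMP and TGF-beta pathway genes (19 negative), where Bmpr2 and Bmpr1a, receptors of the pathway, differed by -0.12 ± 0.14 and -0.01 ± 0.12. It was -0.19 log2 over 22 arterial and Notch genes, where the netrin receptor Unc5b was at -0.25 ± 0.11 and the neuropilin Nrp1 at -0.08 ± 0.17. Over 27 cell cycle genes it was -0.04 log2, with Top2a at -0.13 ± 0.17 and Mki67 at 0.05 ± 0.17, both of dividing cells, and in replicates 2 and 3 Ccnd1 and Ccnd2, the D-type cyclins, passed as lower (-0.48 and -0.80 log2) and the mitotic kinase Aurkb as higher (0.42). Over 13 tested Hox and Cdx genes of 20 the median was -0.69 log2, with FLK1+ pair medians of 0.58, 0.26 and 0.54 log2 and HEI pair medians of 0.17, 0.04 and 0.00, with Hoxb5 at -1.04 ± 0.41 and Hoxb3 at 0.10 ± 0.22. The 17 cardiac genes tested of 20 had a median of -0.05, the 12 tested paraxial and lateral mesoderm genes of 17 one of -0.25, and the 9 erythroid genes tested of 17 one of 0.27 log2. Tbx20, a cardiac T-box factor, was at 0.02 ± 0.30 log2 with all pairs and passed as lower with replicates 2 and 3 alone (-0.35 ± 0.09, edgeR adjusted p = 0.0404). Among erythroid genes the transferrin receptor Tfrc was at -0.21 ± 0.11 log2 and the mitochondrial iron importer Slc25a37 at 0.34 ± 0.17, and the pluripotency list's RNA-binding proteins Lin28a and Lin28b were at -0.05 ± 0.10 and -0.27 ± 0.11. With all pairs none of these lists held a gene that passed by edgeR, and DESeq2 passed Ccnd1 and the pluripotency gene Klf2, a Krüppel-like factor also of endothelium (adjusted p = 0.0432 and 0.0466).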

How the data were processed

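Total RNA was amplified (Nugen), per the labels' protocols. The authors deposited 1 table of raw counts, with a line per gene symbol and a column per library. The submitters' processing notes name STAR 2.4.0, HTSeq 0.6.1 and mm10; the sources used here give neither strand setting nor annotation, so overlapping and antisense genes are uncertain. Of 24061 lines, 27 with a date in place of a symbol were left out. Genes were filtered (filterByExpr), scaled (TMM) and fitted with edgeR 4.0.16 (limma 3.58.1, R 4.3.3), robust quasi-likelihood, with the 6 pairs as a block, tested on simulated counts; SE is the log2 value over the root of F. Pair differences used a prior count of 2. Same-numbered libraries deviated together (r of 0.646 to 0.872 in 6 pairs), and the rule of the comparison pairs them. For HEI replicates 2 and 3 r was 0.673 and 0.689, against at most 0.642 with a library of another number. For FLK1+ replicates 2 and 3 it was 0.646 and 0.652, against at most 0.64. These values set replicate 1 apart and hardly tell the pairs of replicates 2 and 3 from each other. Genes named had a group mean of at least 10 CPM and no overlap between the HEI and FLK1+ pairs of their fit. They were 6 per direction by smallest p where none passed and 12 per direction in replicates 2 and 3. For the latter only the pairs of replicates 2 and 3 had to be without overlap. Set genes and list members (up to 4 called, otherwise the 2 most abundant) were added. Members, lists and rule were chosen with earlier results of these data known. Alternatives were no block, a block shared by both stages, RLE factors, no filter, at least 5 CPM in 3 libraries, all 15 libraries, a prior count of 0.5, DESeq2 1.42.0 and libraries left out. Coordinates are GENCODE M21 and promoters RefSeq; all 70 named genes matched, 3 by an older symbol, and 1 further gene that the rule names is not reported here. Counts per library limit the precision, and depth intervals cover counting error only.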

Additional observations from a re-analysis of the deposited data

Results flagged for a closer look

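For 13 of the 70 named genes, every HEI pair moved one way with reporter activity and every FLK1+ pair the other way. In the paired edgeR fit the difference itself did not pass the threshold for any of them (unadjusted p under 0.05 in each). Over all 13505 genes tested, 582 (4.31%) were lower in 3 HEI pairs and higher in 3 FLK1+ pairs, and 207 (1.53%) were the reverse. All of the 13 but Rspo3, Zeb2 and Etv6 were named by a rule that asks for HEI and FLK1+ pairs without overlap. The rule asks this over all 3 pairs or, for genes named from replicates 2 and 3, over those pairs only. The share among the named genes follows in part from that rule and is no result about them. The difference of effects was -2.19 log2 for Myct1, -1.93 for Emp1, -1.76 for Mfsd6, -1.73 for Edn1, -0.97 for Mical2, -0.80 for Tspan9, -0.40 for Rspo3, -0.31 for Zeb2, a repressor of epithelial genes, and -0.29 for Etv6, all lower with reporter activity in HEI cells and higher in FLK1+ cells. It was 5.34 for Rpph1, 1.72 for Clmn, 1.24 for Sycp3 and 0.76 for Sfi1, all higher with reporter activity in HEI cells and lower in FLK1+ cells. DESeq2 passed Myct1, Emp1, Mfsd6, Edn1, Mical2, Tspan9 and Rpph1 of these. Some of the signs rest on nearly equal pairs or on few reads. The FLK1+ pair of replicate 2 was at 0.09 log2 for Myct1, with 5 reads in each library, and at 0.01 for Rspo3. For Edn1 that pair had 5 reads against 3. The HEI pair of replicate 2 was at -0.01 log2 for Zeb2, and the HEI pair of replicate 1 had 20 reads against 18 for Clmn.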

How the results depend on the processing

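The difference called 0 genes with the pairs as a block, with no replicate block (145 at an unadjusted p under 0.05), with a replicate block shared by both stages (789), with RLE factors, at 5 CPM and with all 15 libraries, but 9 with no filter and 44 with DESeq2. The HEI effect called 0 in each of these except 1 with DESeq2. The 19 genes of the FLK1+ effect became 0 with no replicate block, with the shared block and with all 15 libraries, 13 at 5 CPM, 55 with no filter and 120 with DESeq2. Over the 9 ways of leaving out a replicate, the difference called 0 to 257 genes (257 without replicate 1, 13 without its FLK1+ pair, 1 without its HEI pair, 1 without FLK1+ replicate 2), the HEI effect 0 to 503 (503, 21, 3 and 0 in the same order) and the FLK1+ effect 0 to 240 (240, 24, 11 and 9; 4 without HEI replicate 2, 5 without HEI replicate 3, 7 without FLK1+ replicate 3, 2 without replicate 2 and 0 without replicate 3). The cause was not tested.

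Signs of named genes held under RLE factors, no filter, DESeq2 (where they gave a value) and all 15 libraries. They reversed with no replicate block for Hoxb3 (-0.06), Slc7a7 (-0.36) and Tbx20 (-0.27), with the shared replicate block for Tbx20 (-0.10), and at 5 CPM for Bmpr1a (0.01). Leaving out replicates gave ranges across 0 for Bmpr1a (-0.08 to 0.16), Bmpr2 (-0.27 to 0.02), Gfi1 (-1.20 to 0.21), Hoxb3 (-0.12 to 0.32), Kdr (-0.01 to 0.28), Lcp1 (-0.81 to 0.07), Lin28a (-0.11 to 0.03), Lrp6 (-0.05 to 0.15), Mki67 (-0.06 to 0.26), Mrc1 (-0.79 to 0.25), Nrp1 (-0.22 to 0.09), Slc7a7 (-0.44 to 1.27), Tbx20 (-0.35 to 0.33) and Top2a (-0.30 to 0.18). A prior count of 0.5 moved 3 pair values of named genes by more than the spread between pairs and left 417 within it. Depth limits genes near 1 CPM, where a pair difference rests on a few reads.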

Other observations

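The transcripts given here were chosen after their values were seen. Malat1, a nuclear long non-coding RNA, had 2350, 12400 and 10600 CPM in FDG+ HEI cells, against 2280, 5630 and 4760 CPM in FDG- HEI cells, and 2560, 6280 and 6830 CPM in LacZ+ FLK1+ cells, against 2680, 5180 and 5860 CPM in LacZ- cells. Its difference was 0.94 ± 0.08 log2 with replicates 2 and 3 (edgeR adjusted p = 2.53e-13) and 0.64 ± 0.30 with all pairs (edgeR adjusted p = 0.537). Replicate 1 showed almost no difference in HEI cells.

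Meg3, an imprinted non-coding RNA, had 87.2, 35.2 and 46.3 CPM in FDG+ HEI cells, against 52.4, 19.9 and 22 CPM in FDG- HEI cells, and 204, 180 and 171 CPM in LacZ+ FLK1+ cells, against 337, 150 and 170 CPM in LacZ- cells. The difference was 1.03 ± 0.24 log2 with all pairs (edgeR adjusted p = 0.339; DESeq2 adjusted p = 0.00592) and 0.87 ± 0.13 with replicates 2 and 3 (edgeR adjusted p = 1.02e-05). Mest, an imprinted hydrolase-fold gene, went the other way, with 6470, 5060 and 6120 CPM in FDG+ HEI cells, against 7350, 5910 and 7790 CPM in FDG- HEI cells, and 1880, 2170 and 2690 CPM in LacZ+ FLK1+ cells, against 818, 1620 and 1870 CPM in LacZ- cells. It was lower with reporter activity in each HEI pair and higher in each FLK1+ pair, and its difference was -0.97 ± 0.19 log2 (edgeR adjusted p = 0.207; DESeq2 adjusted p = 0.000554).

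The glucose transporter gene Slc2a3 had 265, 252 and 327 CPM in FDG+ HEI cells, against 281, 311 and 403 CPM in FDG- HEI cells, and 465, 534 and 803 CPM in LacZ+ FLK1+ cells, against 214, 409 and 603 CPM in LacZ- cells. Its difference was -0.87 ± 0.19 log2 (edgeR adjusted p = 0.298; DESeq2 adjusted p = 0.00577). Of 20 tested glycolysis and hypoxia genes 15 were negative, with a median of -0.13 log2.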
